A study of Mus musculus with 8 samples.

Results

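Signalling chains of lymphocyte receptors, and a receptor gene, were examined in 3 progenitor populations of mouse fetal liver. The genes were the CD3 chains Cd3g, Cd3d, Cd3e and Cd247, the adaptors Fcer1g, Tyrobp and Hcst, and the receptor gene Ncr1. They are 8 of the 34745 genes in the deposited table and were taken by gene symbol, whatever their values. All 8 passed the filter on low counts, Cd3e through the ILCP libraries alone and Ncr1 mainly through the ILC1/3P libraries.

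Bulk RNA-seq was made from cells sorted from the fetal liver of untreated wild-type B6 mice: ILC1/3P (2 libraries), ILCP (3 libraries) and CLP (3 libraries). Every gate took live lineage-negative, CD45+ CD127+ CD25- cells. ILC1/3P were also Flt3- α4β7+ PD-1- CD94+, ILCP were Flt3- α4β7+ PD-1+ CD94-, and CLP were Flt3+. The antibodies of the lineage cocktail are not listed in the labels, so whether the gates removed cells with surface CD3 is not known. An age of 6 to 8 weeks in the labels is unexplained for fetal tissue. Whether the libraries of a group came from separate animals is not stated. The p-values therefore set group differences against a spread between libraries that may be only technical. All 8 libraries carry 1 batch date.

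Total counts were 6310739 to 8082476 in ILC1/3P, 6043940 to 6905448 in ILCP and 4991939 to 7167619 in CLP libraries. The 50 most abundant genes took 24.8% to 29.2% of the counts in ILC1/3P, 15.1% to 18.0% in ILCP and 12.9% to 16.0% in CLP. Transcripts of 4 of the 8 genes behind the gates went with the sort: Flt3 averaged 0, 0.426 and 459 CPM in ILC1/3P, ILCP and CLP, Klrd1 (CD94) 1405, 44.6 and 52.2 CPM, Pdcd1 (PD-1) 13.8, 77.6 and 0 CPM, and Itgb7, the β7 chain, 52.5, 72.8 and 3.94 CPM. Of the others, Itga4 did not follow it, and Il7r, Il2ra and Ptprc encode proteins gated alike in every population. Itga4, the α4 chain, averaged 134, 441 and 371 CPM and was lower in ILC1/3P than in ILCP (adjusted p = 0.00287) and CLP (0.0036). Il7r (CD127), gated as positive throughout, averaged 214, 483 and 434 CPM and was lower in ILC1/3P than in ILCP (0.00729) and CLP (0.00968, lost without ILC1/3P replicate 2). Il2ra (CD25), gated as negative throughout, averaged 2.30, 7.55 and 0 CPM and was called higher than CLP in ILC1/3P (0.0217) and ILCP (0.0209). The ILCP call was lost when any single CLP or ILCP library was left out, and with the replicate number as a block (0.0822). The ILC1/3P call was lost without CLP replicate 1 (0.0575) and with the replicate number as a block (0.0886). It was also lost without ILC1/3P replicate 2 (log2 fold change 5.54, against 6.92 with all libraries). Ptprc (CD45), gated as positive throughout, averaged 319, 228 and 245 CPM and was not called. CPM here use the library size after TMM adjustment, which corrects for a few abundant genes taking a large share of a library. Scaling by library size alone moved the median of all genes by -0.68 on the log2 scale for ILC1/3P against CLP and by -0.63 when ILC1/3P were set against ILCP. It also turned the split of genes higher and lower from 1592 and 1571 to 946 and 2807 in the first of these, and from 1083 and 1109 to 474 and 2141 in the second. Changes are therefore read relative to the TMM scale.

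Lymphocytes read their antigen and activating receptors through small partner chains. CD3γ, CD3δ and CD3ε assemble with the T cell receptor together with the CD3ζ dimer (Cd247), and their tails carry ITAMs, tyrosine motifs that recruit the kinases ZAP-70 and SYK once phosphorylated. FcRγ (Fcer1g) and DAP12 (Tyrobp) are ITAM adaptors of Fc receptors, NK cell receptors and myeloid receptors, whereas DAP10 (Hcst) has no ITAM and couples NKG2D to phosphoinositide 3-kinase. Ncr1 encodes NKp46, an activating receptor of NK cells, group 1 innate lymphoid cells and some group 3 innate lymphoid cells that signals through FcRγ or CD3ζ.

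The upstream sequences of Cd3g, Cd3d, Cd3e and Ncr1 are shown because these genes carry the main contrasts described below: Cd3g and Cd3d were far higher in both α4β7+ populations than in CLP, Cd3e was nearly absent beside them in the same gene cluster, and Ncr1 separated ILC1/3P from the rest. The 250 bases before each RefSeq transcript start are written 5′ to 3′ along the gene (GRCm38.p6, the mm10 build): Cd3g chr9:44980432-44980681 on the minus strand, Cd3d chr9:44981536-44981785 on the plus strand, Cd3e chr9:45009612-45009861 on the minus strand and Ncr1 chr7:4337465-4337714 on the plus strand. Capitals mark matches, on either strand, to short motifs of lymphoid transcription factor families. The letters searched were AGGAAG for the factors of the ETS family, AGGTGT for those of the T-box family and CANCTG for the basic helix-loop-helix factors that bind the E-box. They were AGATAA for the zinc finger factors of the GATA family, CTTTGA for the high mobility group factors TCF and LEF, and finally TGTGGT for the factors of the RUNX family.
Cd3g: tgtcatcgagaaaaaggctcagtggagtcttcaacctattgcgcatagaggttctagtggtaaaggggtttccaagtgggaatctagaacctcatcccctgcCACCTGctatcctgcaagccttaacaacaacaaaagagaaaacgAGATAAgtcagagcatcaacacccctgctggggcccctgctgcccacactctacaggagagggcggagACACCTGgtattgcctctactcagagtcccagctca
Cd3d: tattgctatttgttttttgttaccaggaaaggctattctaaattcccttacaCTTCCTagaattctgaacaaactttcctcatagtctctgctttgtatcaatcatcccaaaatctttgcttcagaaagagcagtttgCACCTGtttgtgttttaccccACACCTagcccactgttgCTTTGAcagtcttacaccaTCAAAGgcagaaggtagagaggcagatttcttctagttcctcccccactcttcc
Cd3e: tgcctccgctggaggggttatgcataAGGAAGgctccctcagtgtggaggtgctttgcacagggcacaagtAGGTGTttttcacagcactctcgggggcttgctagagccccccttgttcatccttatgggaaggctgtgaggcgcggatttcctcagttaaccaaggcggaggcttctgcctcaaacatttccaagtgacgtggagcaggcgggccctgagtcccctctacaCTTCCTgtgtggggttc
Ncr1: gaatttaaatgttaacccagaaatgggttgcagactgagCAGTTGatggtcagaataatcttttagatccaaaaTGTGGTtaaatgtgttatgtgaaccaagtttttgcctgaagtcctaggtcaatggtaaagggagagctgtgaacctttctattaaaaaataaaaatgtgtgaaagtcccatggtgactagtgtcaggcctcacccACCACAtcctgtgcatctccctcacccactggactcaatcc

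The Cd3g window held 2 E-box matches, 1 GATA match and 1 T-box match, which overlaps the E-box nearer the start. The Cd3d window held 2 TCF/LEF matches and 1 match each to the E-box, ETS and T-box motifs. The Cd3e window held 2 ETS matches and 1 T-box match. The Ncr1 window held 2 RUNX matches and 1 E-box match. Among 32851 windows of the same length in the RefSeq table, 44.8% held the E-box motif, 29.5% ETS, 14.0% RUNX, 13.8% TCF/LEF, 11.8% T-box and 9.99% GATA. These matches describe the letters only. Windows were present for 7 of the 8 genes, Tyrobp being the exception.

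Cd3g, Cd3d and Cd3e lie together on chromosome 9 (mm10). Cd3g occupies chr9:44969572-44980431 on the minus strand and Cd3d chr9:44981793-44987052 on the plus strand, so that they are transcribed away from each other from starts 1362 bases apart. Cd3e occupies chr9:44998743-45009590 on the minus strand, with its start 27797 bases from that of Cd3d. The other genes lie apart: Cd247 at chr1:165788681-165877277 (plus), Fcer1g at chr1:171229572-171234365 (minus), Ncr1 at chr7:4337724-4345164 (plus), and Tyrobp at chr7:30413788-30417577 (plus) beside Hcst at chr7:30417717-30419854 (minus). Tyrobp and Hcst run towards each other and end 140 bases apart.

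Set against CLP, ILC1/3P had higher levels of 6 of the 8 genes: Cd3g, Cd3d, Fcer1g, Tyrobp, Hcst and Ncr1. ILCP had higher levels of 4, namely Cd3g, Cd3d, Fcer1g and Hcst. Set against ILCP, ILC1/3P had higher levels of Fcer1g, Tyrobp, Hcst and Ncr1. The test was edgeR's quasi-likelihood test with Benjamini-Hochberg adjustment over the 13436 genes tested, and a gene counts as higher or lower at an adjusted p under 0.05. A p that misses this threshold does not show that levels were equal. Over all genes tested, 11.8% were higher and 11.7% lower in ILC1/3P against CLP, 23.5% in either direction. In ILCP against CLP 3.91% were higher and 2.87% lower (6.79% in either direction), and in ILC1/3P against ILCP 8.06% were higher and 8.25% lower (16.3%). Every library of ILC1/3P lay above every CLP library for 6 of the 8 genes, against 23.3% of all genes tested, and every ILCP library lay above every CLP library for 7, against 14.1%. Every ILC1/3P library lay above every ILCP library for 5 of the 8, against 20.2%, and below for 2, Cd3e and Cd247, against 24.6%. Cd3e and Ncr1 could pass the filter only by being high in 1 group, so their separation is no support. Among the other 6 genes, the counts without overlap were 5, 6 and 4 higher and 0, 0 and 1 lower in these comparisons, and those called were 5, 4 and 3 higher. The count of the 8 genes called lower was 0 in each comparison by edgeR, 0 by DESeq2 and 0 at an unadjusted p under 0.05.

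**Figure D1:**
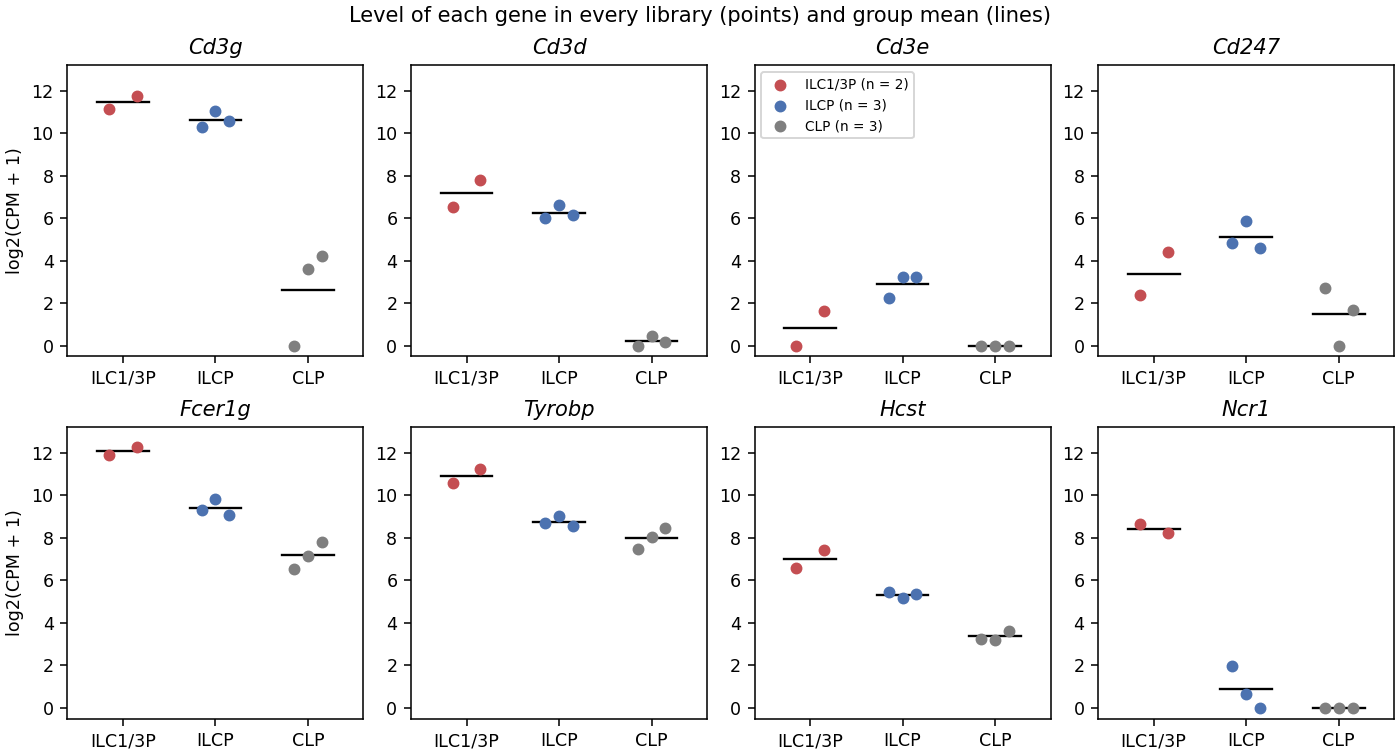
Level of each gene in every library on a log2(CPM + 1) axis (a pseudocount of 1), with a line at the mean of the plotted values of ILC1/3P (n = 2), ILCP (n = 3) and CLP (n = 3). Cd3g and Cd3d are high in both ILC1/3P and ILCP, Fcer1g, Tyrobp and Hcst are highest in ILC1/3P, and Cd3e and Cd247 are highest in ILCP.

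**Figure D2:**
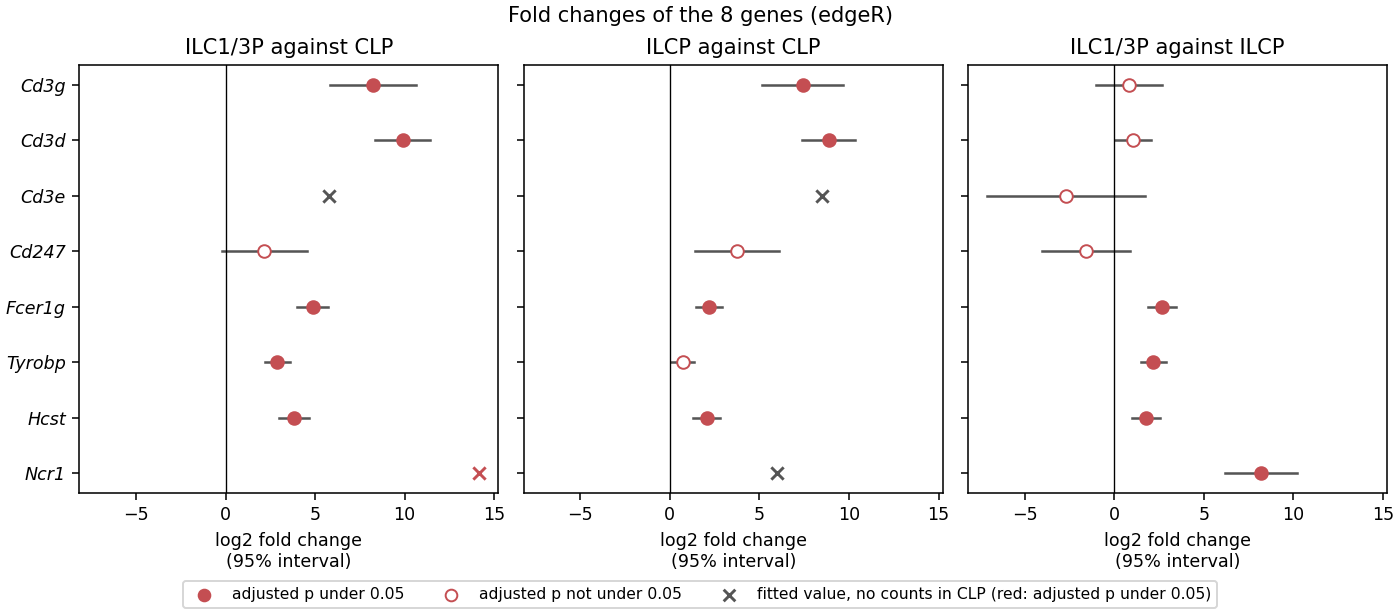
Fitted log2 fold changes with 95% intervals for the 8 genes in the 3 comparisons. Filled points passed the adjusted p threshold of 0.05 and open points did not. Crosses are fitted values against a CLP group without counts, where the size of the fold is not estimated and no interval is drawn, and the red cross for Ncr1 passed the threshold.

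Cd3g, which encodes the CD3γ chain, had 2243 and 3460 CPM in the ILC1/3P libraries, 1249, 2094 and 1515 CPM in the ILCP libraries, and 0, 11.2 and 17.6 CPM in the CLP libraries. Every ILC1/3P and ILCP library lay above every CLP library by more than the whole CLP range, and CLP replicate 1 had no Cd3g count. The log2 fold change was 8.24 ± 1.08 (SE) for ILC1/3P against CLP (adjusted p = 0.000306) and 7.42 ± 1.03 for ILCP against CLP (adjusted p = 0.000946). The CLP level rests on few counts in a pair of libraries. Without CLP replicate 1 the log2 fold changes were 7.62 and 6.80, and without CLP replicate 3 they were 9.09 and 8.27. In bulk RNA, fewer cells with a transcript and less of it in each cell cannot be told apart.

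Between ILC1/3P and ILCP, the log2 fold change of Cd3g was 0.82 ± 0.85 (95% interval -1.04 to 2.67, adjusted p = 0.564). The TMM-scaled CPM of these groups did not overlap, whereas the authors' FPKM, which use the plain library total, were 1265 and 1739 in ILC1/3P and 1090, 1646 and 1256 in ILCP and did overlap. With library size as the only scaling the log2 difference was 0.17.

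Cd3d, which encodes CD3δ, had 92.5 and 220.3 CPM in ILC1/3P, 63.2, 96.2 and 70.4 CPM in ILCP, and 0, 0.367 and 0.148 CPM in CLP. The CLP values stand for 0, 2 and 1 counts, and no CLP library came near the lowest ILCP library. From pooled counts, ILC1/3P were 1016-fold higher than CLP (95% counting interval 347 to 4934; adjusted p = 4.61e-06) and ILCP were 538-fold higher (184 to 2613; adjusted p = 1.23e-05). These intervals, like the floors used below, cover only the error of counting. The fitted log2 fold changes of 9.89 and 8.86 became 10.87 and 9.85 without CLP replicate 2 and 9.19 and 8.16 without CLP replicate 1, and the first became 9.13 without ILC1/3P replicate 2. ILC1/3P and ILCP overlapped in Cd3d, with a log2 fold change of 1.03 ± 0.46 (adjusted p = 0.155), and without ILC1/3P replicate 1 it was 1.52 (adjusted p = 0.0498). It was 0.28 without ILC1/3P replicate 2 and 0.37 when scaled by library totals alone, and neither passed.

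Cd3e encodes CD3ε, the chain that pairs with both CD3γ and CD3δ in the assembled receptor. It had 0 and 9 counts in ILC1/3P, 26, 60 and 60 counts in ILCP, and 0 counts in each CLP library. These were 0 and 2.13 CPM in ILC1/3P, 3.69, 8.28 and 8.43 CPM in ILCP and 0 CPM in CLP. The 3 ILCP libraries lay above all others. Against a floor of 3 counts over the CLP group, ILCP were at least 47.8-fold higher, yet the difference did not pass (adjusted p = 0.0608), and that for ILC1/3P did not either (adjusted p = 0.0905, or 0.0345 without ILC1/3P replicate 1). The ILCP difference was called by DESeq2 (adjusted p = 0.0021), with no filter on low counts (0.0111), with the ILCP and CLP libraries alone (0.0182) and when either ILC1/3P library was left out (0.0205 and 0.0249). The log2 fold change of ILC1/3P over ILCP was -2.69 ± 1.96 (adjusted p = 0.396). It was -1.67 without ILC1/3P replicate 1, and without replicate 2 no ILC1/3P counts remained. The gene shares 135 exon bases, 3.31% of its exons, with the antisense gene Gm48719, whose reads cannot be told apart without strand.

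Cd247, which encodes CD3ζ, had 4.27 and 20.1 CPM in ILC1/3P, 27.7, 57.4 and 23.5 CPM in ILCP, and 5.66, 0 and 2.22 CPM in CLP. All ILCP libraries lay above the other 5, and ILC1/3P overlapped CLP. The log2 fold change of ILCP over CLP was 3.74 ± 1.07 and missed the threshold (adjusted p = 0.0610). It passed with DESeq2 (0.00244), with no filter on low counts (0.000942) and when either ILC1/3P library was left out (0.0353 and 0.0427). For ILC1/3P the log2 fold change was 2.16 ± 1.09 over CLP (adjusted p = 0.174) and -1.58 ± 1.13 over ILCP (adjusted p = 0.378). Without ILC1/3P replicate 2 these were 0.65 and -3.07, without ILC1/3P replicate 1 they were 2.88 and -0.85, and scaled by library totals alone 1.38 and -2.25. Without CLP replicate 1 the value over CLP was 3.37 for ILC1/3P and 4.96 for ILCP. None of these values passed. These counts are uncertain, because 56.4% of the annotated exon bases of Cd247 lie over exons of Pou2f1 on the other strand. Pou2f1 averaged 11.4, 14.6 and 17.2 CPM in ILC1/3P, ILCP and CLP and was not called in any comparison. The part of its reads in the Cd247 counts was not tested.

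Set per length, the CD3 chains were far from equal. FPKM, the authors' counts scaled by gene length and library total, averaged 1502 ± 335 for Cd3g, 82.2 ± 41.8 for Cd3d, 0.497 ± 0.702 for Cd3e and 1.01 ± 0.877 for Cd247 in ILC1/3P (SD, n = 2). In ILCP they averaged 1330 ± 285, 63.6 ± 11.1, 5.18 ± 1.91 and 4.78 ± 2.21 for the same genes (SD, n = 3). Cd3g ranked 68 and 49 by FPKM among the genes of the ILC1/3P libraries and between 29 and 38 in the ILCP libraries. Within each library its FPKM was 24.0 and 15.6 times that of Cd3d in ILC1/3P and 19.6, 21.6 and 21.3 times in ILCP. Over Cd3e the ratio of FPKM was 1751 in the ILC1/3P library with Cd3e counts, and 364, 272 and 193 in the ILCP libraries. The levels of Cd3e and Cd247 in ILCP overlapped. The authors' length for Cd247 is 8265 bases, against 1632 for its principal GENCODE transcript. With that transcript its mean level in ILCP would be 24.2 on the same scale, still below Cd3d.

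**Figure D3:**
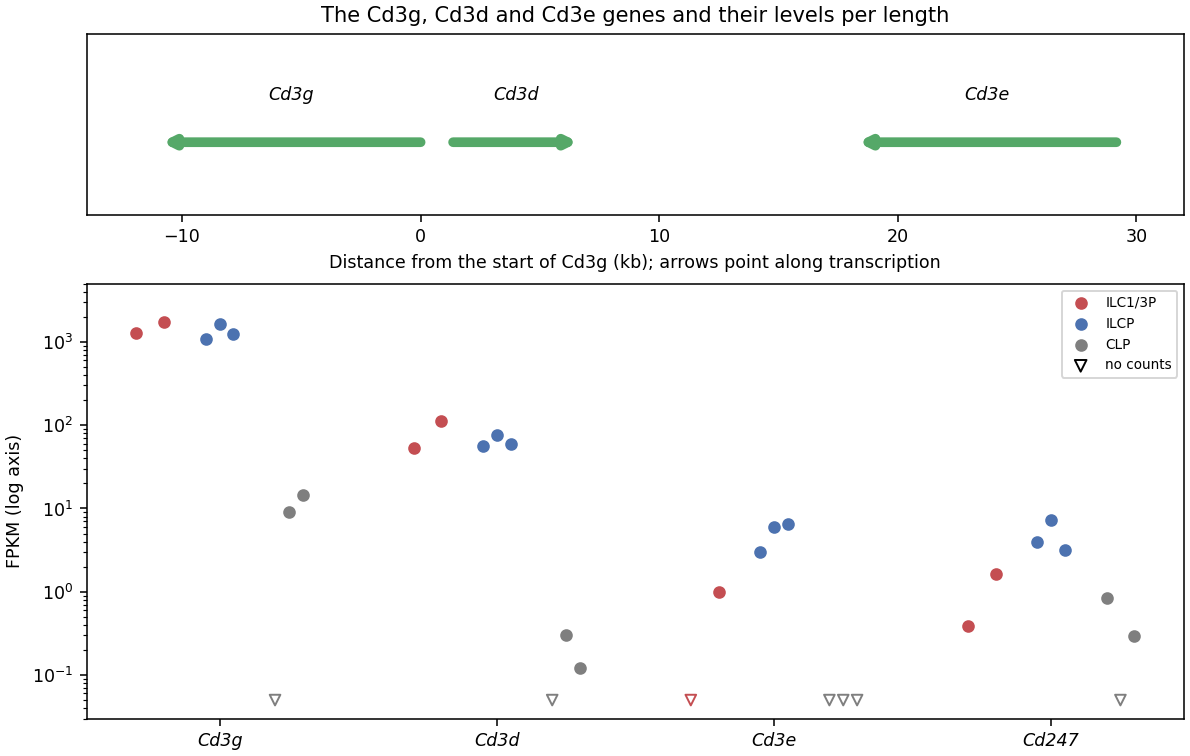
Above, Cd3g, Cd3d and Cd3e drawn to scale by distance from the start of Cd3g in kilobases, with arrows along transcription. Below, FPKM on a log axis of the 4 CD3 chain genes in each library, with open triangles at the foot of the axis for libraries without counts. Cd3g stands at 1090 to 1739 FPKM in the 5 ILC1/3P and ILCP libraries, and Cd3e at 6.50 FPKM or less.

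Fcer1g, which encodes FcRγ, had 3836 and 5012 CPM in ILC1/3P, 637, 919 and 543 CPM in ILCP, and 92.7, 141 and 224 CPM in CLP. The 3 groups formed separate steps with no overlap. The log2 fold change was 4.86 ± 0.39 for ILC1/3P against CLP (adjusted p = 1.06e-05), 2.20 ± 0.33 for ILCP against CLP (adjusted p = 0.00166) and 2.66 ± 0.36 for ILC1/3P against ILCP (adjusted p = 0.000938). All 3 held in every alternative fit. Scaled by library totals alone, the log2 fold changes of ILC1/3P were 4.19 over CLP and 2.02 over ILCP.

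Tyrobp, which encodes DAP12, had 1509 and 2429 CPM in ILC1/3P, 418, 514 and 373 CPM in ILCP, and 179, 266 and 353 CPM in CLP. Both ILC1/3P libraries stood apart (scaled by library totals alone, the log2 fold changes of ILC1/3P were 2.21 over CLP and 1.53 over ILCP), while the lowest ILCP library lay just above the highest CLP library. The log2 fold change was 2.89 ± 0.32 for ILC1/3P against CLP (adjusted p = 0.000112) and 2.18 ± 0.32 for ILC1/3P against ILCP (adjusted p = 0.00135). For ILCP against CLP it was 0.71 ± 0.29 (95% interval 0.08 to 1.34), and the adjusted p of 0.186 missed the threshold there and in every alternative fit.

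Hcst, which encodes DAP10, had 96.3 and 172.9 CPM in ILC1/3P, 43.4, 35.5 and 39.5 CPM in ILCP, and 8.60, 8.27 and 11.4 CPM in CLP. Its groups did not overlap in any comparison. The log2 fold change was 3.83 ± 0.38 for ILC1/3P against CLP (adjusted p = 5.34e-05) and 2.06 ± 0.34 for ILCP against CLP (adjusted p = 0.00303). For ILC1/3P against ILCP it was 1.77 ± 0.36 (adjusted p = 0.00699). That call was lost with library size as the only scaling (log2 1.10, adjusted p = 0.0599) and without ILC1/3P replicate 2 (log2 1.29, adjusted p = 0.0962).

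Per length, by the authors' FPKM, Tyrobp had the highest mean of the 3 adaptors in each population. In ILC1/3P, Tyrobp averaged 2452 ± 619 FPKM, Fcer1g 1947 ± 209 FPKM and Hcst 215.7 ± 70.4 FPKM (SD, n = 2). In ILCP the averages were 850.5 ± 112.9, 479 ± 114 and 100.3 ± 15.3 FPKM, and in CLP 529 ± 146, 106 ± 41.3 and 24.4 ± 3.88 FPKM, for the same genes (SD, n = 3 each). In ILC1/3P the ranges of Tyrobp and Fcer1g overlapped (2014 and 2889 against 1799 and 2095 FPKM), and in ILCP and CLP Tyrobp lay above Fcer1g in every library. Tyrobp was among the most abundant transcripts also in CLP, ranked 88 to 138 by FPKM.

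The ratio of Fcer1g to Tyrobp was highest in ILC1/3P and lowest in CLP. Within a library, Fcer1g reached 0.893 and 0.725 of the Tyrobp FPKM in ILC1/3P, 0.536, 0.628 and 0.512 in ILCP, and 0.182, 0.187 and 0.223 in CLP. The groups did not overlap, and a ratio within a library is free of the scaling between libraries. An exact two-sided permutation test of the log2 ratio gave p = 0.2 for ILC1/3P against CLP, 0.1 for ILCP against CLP and 0.2 between ILC1/3P and ILCP, the smallest that groups of these sizes allow (adjusted p = 0.286 over 10 such tests on 4 ratios, chosen after their values were seen). The order of these adaptors depends on the length used. The authors' length for Fcer1g is 1605 bases, against 674 for its principal GENCODE transcript, and with that transcript length Fcer1g would average 4637 on the same scale in ILC1/3P, above Tyrobp at 2452, and 1142 in ILCP, above 850.5. The comparison of the ratio between populations does not depend on length.

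**Figure D4:**
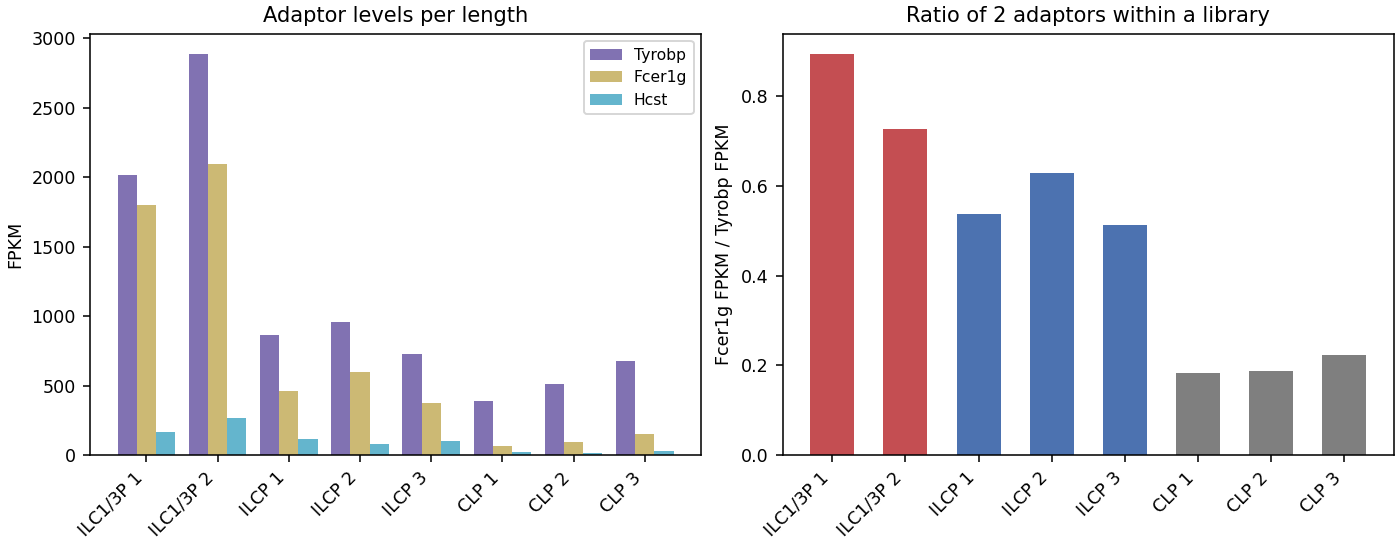
Left, FPKM of Tyrobp, Fcer1g and Hcst in each library. Right, the ratio of Fcer1g to Tyrobp FPKM within each library, with bars coloured by population (ILC1/3P, ILCP, CLP from left to right). The ratio is 0.725 to 0.893 in ILC1/3P, 0.512 to 0.628 in ILCP and 0.182 to 0.223 in CLP.

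Ncr1, which encodes the receptor NKp46, had 395 and 302 CPM in ILC1/3P, 2.98, 0.552 and 0 CPM in ILCP, and 0 CPM in each CLP library. In counts these were 2405 and 1280, then 21, 4 and 0, then 0 throughout. ILC1/3P stood far above all other libraries, and ILCP overlapped CLP at 0. ILC1/3P were at least 2504-fold higher than CLP against a floor of 3 counts over the CLP group (adjusted p = 0.000108). Against ILCP the log2 fold change was 8.19 ± 0.90 (adjusted p = 0.000665). The ILCP level rests on 1 library, and without ILCP replicate 1 that log2 fold change was 10.20. Because Ncr1 passed the filter mainly through ILC1/3P, where it is high, both p-values of ILC1/3P are no separate support. ILCP against CLP, at least 8.19-fold higher on pooled counts, was not called (adjusted p = 0.0974) but passed without ILCP replicate 3 (0.0349). At 157 ± 42.1 FPKM in ILC1/3P (SD, n = 2), the receptor stayed below the adaptor FcRγ, at 0.104 and 0.0609 of the Fcer1g FPKM in the same libraries.

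Of 20 receptors that pair with FcRγ, DAP12 or DAP10, 11 could be tested, and 7 were higher and 2 lower in ILC1/3P against CLP, 2 higher and 3 lower in ILCP against CLP, and 6 higher and 0 lower in ILC1/3P against ILCP (0 lower also by DESeq2 and at an unadjusted p under 0.05). Of those tested these are 63.6% and 18.2%, 18.2% and 27.3%, and 54.5% and 0%. Over all genes tested the shares were 11.8% and 11.7%, 3.91% and 2.87%, and 8.06% and 8.25%. Klrb1a, Pilrb1 and Fcgr4 averaged at most 0.0473 CPM in ILCP and CLP, so they passed the filter through ILC1/3P alone and are no support. Siglech and Trem1 had no counts in ILC1/3P or ILCP and could not be called lower between them. They passed the filter through CLP alone, so their lower calls against CLP are no support either. The median log2 fold changes of the 11 receptors were 5.01, 0.00 and 6.03, against -0.25, 0.01 and -0.23 over all genes tested. With genes absent from a group set at their bound, the medians were 5.01, 0.00 and 5.68. The 0.00 in ILCP against CLP is not a measured lack of change. It is the value fitted to Klrb1a and Pilrb1, which had no counts in either group. The genes higher in ILCP than in CLP were Klrk1 and Klrc2. That count of 2 fell to 1 when any single CLP or ILCP library was left out, and to 0 with the ILCP and CLP libraries alone.

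Klrk1, which encodes the DAP10 and DAP12 partner NKG2D, averaged 1177 ± 523 CPM in ILC1/3P, 17.9 ± 3.25 in ILCP and 5.25 ± 3.98 in CLP. Its log2 fold change was 7.76 ± 0.58 for ILC1/3P against CLP (adjusted p = 6.35e-06) and 6.03 ± 0.53 for ILC1/3P against ILCP (adjusted p = 0.000109). Klrc2, which encodes the DAP12-dependent receptor NKG2C, averaged 248 ± 87.5 CPM in ILC1/3P, 1.45 ± 1.18 in ILCP and 0 in CLP. ILC1/3P were at least 1813-fold higher than CLP in Klrc2 (adjusted p = 1.90e-05), although reads of this gene may be shared with its close relative Klrc1. Klrb1c, which encodes the FcRγ partner NK1.1, averaged 311 ± 14.96 CPM in ILC1/3P, 2.42 ± 1.75 in ILCP and 9.61 ± 0.773 in CLP. It was higher in ILC1/3P than in CLP (log2 5.01 ± 0.49, adjusted p = 4.84e-05) but lower in ILCP than in CLP (log2 -1.98 ± 0.46, adjusted p = 0.0229). The second call was lost without any 1 of the CLP libraries (adjusted p = 0.068, 0.0724 and 0.0607 without replicates 1, 2 and 3), without ILCP replicate 2 (0.078) and with the ILCP and CLP libraries alone (0.212). Fcgr3, which encodes the FcRγ-dependent Fc receptor CD16, averaged 737 ± 136 CPM in ILC1/3P, 148 ± 27.05 in ILCP and 70.4 ± 26.1 in CLP. Its log2 fold change was 3.39 ± 0.34 for ILC1/3P against CLP (adjusted p = 5.34e-05).

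Siglech and Trem1 were the receptors called lower in ILC1/3P, and both were called lower in ILCP too. Both passed the filter through CLP alone, where they are high, so these calls are no support. Siglech, a DAP12 partner of plasmacytoid dendritic cells, had no counts in ILC1/3P or ILCP and averaged 67.2 ± 5.79 CPM in CLP (adjusted p = 0.000143 and 6.84e-05). Trem1, a DAP12 partner of myeloid cells, had no counts in ILC1/3P or ILCP and averaged 25.3 ± 10.6 CPM in CLP (adjusted p = 0.00255 and 0.00177). Of 10 myeloid marker genes 6 could be tested: 1 was higher and 2 lower in ILC1/3P against CLP, 0 higher and 2 lower in ILCP against CLP, and 1 higher and 0 lower in ILC1/3P against ILCP. Of those tested these are 16.7% and 33.3%, 0% and 33.3%, and 16.7% and 0%. Over all genes tested the shares were 11.8% and 11.7%, 3.91% and 2.87%, and 8.06% and 8.25%. The list summed to 60.5 to 73.8 CPM in ILC1/3P, 14.2 to 33.4 CPM in ILCP and 643 to 872 CPM in CLP, with Mpo at 437 to 710 CPM and Lyz2 at 111 to 165 CPM in CLP. Mpo and Lyz2 carried the CLP sum and were the genes called lower. Mpo passed the filter through CLP alone, so its calls are no support. S100a9 averaged 2.99, 2.16 and 0 CPM in ILC1/3P, ILCP and CLP and was higher in ILC1/3P than in CLP (adjusted p = 0.0419, lost in 10 of the alternative fits). S100a8 averaged 3.04, 3.09 and 0.674 CPM and Cd14 1.38, 0 and 0.122 CPM. Their part in the CLP levels of Tyrobp and Fcer1g was not tested.

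The chains of the T cell receptor itself were mostly higher in both α4β7+ populations. Of 8 genes, 7 could be tested, and 6 were higher and 0 lower in ILC1/3P and likewise in ILCP against CLP, with median log2 fold changes of 5.15 and 6.55 (the same with the gene absent from CLP set at its bound). By DESeq2 and at an unadjusted p under 0.05, 0 of them were lower against CLP. In each comparison 85.7% of those tested were higher, against 11.8% and 3.91% of all genes tested. The Trdc call in ILC1/3P was lost with the ILC1/3P and CLP libraries alone (adjusted p = 0.101). Trdc averaged 10.9 ± 12.0 CPM in ILC1/3P and 0.444 ± 0.769 in CLP. Its log2 fold change was 4.59, or 2.38 without ILC1/3P replicate 1, where the call was lost as well. With no filter, the calls of Tcrg-C1 were lost in ILC1/3P (0.0648) and ILCP (0.068), and that of Tcrg-C2 in ILCP (0.0573). Trbc1 averaged 1309 ± 106 CPM in ILC1/3P, 1889 ± 223 in ILCP and 20.2 ± 3.65 in CLP. Trbc2 averaged 3846 ± 771 CPM in ILC1/3P, 1938 ± 275 in ILCP and 544 ± 189 in CLP, and was the gene of the list called between ILC1/3P and ILCP (log2 0.99 ± 0.31, adjusted p = 0.0498). Between these groups 1 gene was higher and 0 lower, with 3 lower at an unadjusted p under 0.05 and 1 lower by DESeq2, and a median of -0.53. These edgeR calls are 14.3% and 0% of the genes tested in the list, against 8.06% and 8.25% of all genes. When libraries were scaled by their totals alone, the Trbc2 call was lost, which left 0 higher, and 2 genes were lower. The Trbc2 call was also lost when any single library other than CLP replicate 1 was left out (adjusted p = 0.0517 to 0.241). With the ILC1/3P and ILCP libraries alone 2 genes were lower, and without ILC1/3P replicate 1 it was 1. Tcrg-C4, a γ chain constant gene, averaged 1002 ± 321 CPM in ILC1/3P, 1661 ± 323 in ILCP and 0 in CLP, at least 6738-fold and 11666-fold higher than CLP. Trac, the α chain constant gene, averaged only 7.76 ± 0.0493, 10.5 ± 2.99 and 2.02 ± 1.75 CPM in ILC1/3P, ILCP and CLP and was not called. Trbc1 and Trbc2, and the Tcrg constant genes, are close copies, so reads may be split between them.

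Of 7 markers of mature T cells, all tested, 2 were higher and 0 lower in ILC1/3P against CLP, 3 higher and 0 lower in ILCP against CLP, and 0 higher and 1 lower in ILC1/3P against ILCP. These are 28.6% and 0%, 42.9% and 0%, and 0% and 14.3% of the list. Over all genes tested the shares were 11.8% and 11.7%, 3.91% and 2.87%, and 8.06% and 8.25%. Cd8a, Cd8b1 and Cd6 had no counts in CLP and could not be called lower against it. The list (Cd4, Cd8a, Cd8b1, Trac, Cd5, Cd6 and Cd28) summed to 74.2 to 101.2 CPM in ILC1/3P, 115.5 to 209.6 CPM in ILCP and 34.6 to 48.2 CPM in CLP, most of it Cd28, at 66.1 to 80.0, 90.3 to 171.1 and 24.1 to 41.1 CPM. Cd28 was higher than in CLP in ILC1/3P (adjusted p = 0.0278) and in ILCP (0.00284). Cd8a averaged 4.35, 14.1 and 0 CPM in ILC1/3P, ILCP and CLP, higher than CLP in both (0.0269 and 0.0279). Cd8b1 averaged 0, 9.79 and 0 CPM, higher in ILCP than in CLP (0.0286) and lower in ILC1/3P than in ILCP (0.0406). Cd8b1 passed the filter through ILCP alone, where it is high, so neither of its calls is support. Apart from Cd28 in ILCP, each of these calls was lost when any of several single libraries was left out, that of Cd28 in ILC1/3P also when scaled by library totals alone, and Cd8a had no ILC1/3P counts without ILC1/3P replicate 1. Cd4 had no counts in ILC1/3P or ILCP, and Cd5 had none in ILCP. For NK cells, a list of 8 markers summed to 56.2 to 61.0 CPM in ILC1/3P, 11.7 to 13.6 CPM in ILCP and 7.24 to 20.6 CPM in CLP, and Prf1, S1pr5, Klra4 and Klra8 had no counts in ILC1/3P. Of the 4 that could be tested, 3 were higher and 0 lower in ILC1/3P against CLP, 2 higher and 0 lower in ILCP against CLP, and 0 were called between ILC1/3P and ILCP. Against CLP these are 75% and 50% higher among those tested, beside 11.8% and 3.91% of all genes. Klrg1, Gzmb and Eomes had no counts in CLP, so being tested they could not be called lower against it. Klrg1 averaged 28.4, 4.39 and 0 CPM in ILC1/3P, ILCP and CLP and Gzmb 16.2, 4.27 and 0 CPM, both higher than CLP in ILC1/3P (adjusted p = 0.000734 and 0.00201) and in ILCP (0.0072 and 0.0119). The Gzmb call in ILCP was lost with the replicate number as a block (0.0627). Eomes averaged 10.0, 2.71 and 0 CPM and was higher in ILC1/3P than in CLP (0.0246). That call was lost without ILC1/3P replicate 2 or any 1 CLP library, and with the replicate block (0.0678). For mast cells and basophils, which also use FcRγ, a list of 7 summed to 185 to 236 CPM in ILC1/3P, 480 to 626 CPM in ILCP and 0 to 2.96 CPM in CLP. Nearly all of it was Cpa3, and Fcer1a, Ms4a2, Mcpt8, Mcpt4 and Prss34 had no counts in any library. The part of these cell types in the levels of the 8 genes was not tested.

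Genes that act downstream of the ITAMs were called in both directions, at shares above those of all genes except for higher calls in ILC1/3P against ILCP. Of 31 kinases and scaffolds, all tested, 7 were higher and 7 lower in ILC1/3P against CLP, 9 higher and 5 lower in ILCP against CLP, and 2 higher and 6 lower in ILC1/3P against ILCP. These are 22.6% and 22.6%, 29.0% and 16.1%, and 6.45% and 19.4% of the list, against 11.8% and 11.7%, 3.91% and 2.87%, and 8.06% and 8.25% of all genes tested. The median log2 fold changes were -0.19, -0.06 and -0.75, against -0.25, 0.01 and -0.23 over all genes tested. Blnk, counted as lower against CLP in both populations, passed the filter through CLP alone and is no support. Several of the counts of this list rest on single libraries. The 7 lower in ILC1/3P against CLP became 4 without CLP replicate 1 or without ILC1/3P replicate 1. The 2 higher in ILC1/3P against ILCP became 0 or 1 when any library was left out, and 0 with these groups alone. The 6 lower became 2 without ILC1/3P replicate 2 and 3 without ILCP replicate 1 or 3. Scaled by library totals alone, 6 passed upwards and 11 downwards in ILC1/3P against CLP, and 0 upwards and 11 downwards in ILC1/3P against ILCP. Txk, a Tec family kinase of T cells, averaged 136 ± 12.6 CPM in ILC1/3P, 270 ± 51.9 in ILCP and 0 in CLP, at least 944-fold and 1888-fold higher than CLP (adjusted p = 1.59e-06 and 1.21e-06). Themis, a T cell receptor signalling protein, averaged 11.3 ± 2.33 CPM in ILC1/3P, 167 ± 68.1 in ILCP and 0 in CLP, and was lower in ILC1/3P than in ILCP (log2 -3.88 ± 0.51, adjusted p = 0.0014).

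Lat and Lcp2, which encode scaffolds phosphorylated by ZAP-70, had their highest level in ILCP. Lat averaged 101 ± 10.7 CPM in ILC1/3P, 201 ± 8.48 in ILCP and 25.4 ± 1.17 in CLP, and all 3 comparisons passed (log2 2.00 ± 0.25, 2.98 ± 0.24 and -0.99 ± 0.26 for ILC1/3P against CLP, ILCP against CLP and ILC1/3P against ILCP). The last of these did not pass when ILC1/3P replicate 2 (adjusted p = 0.122), ILCP replicate 1 (0.067) or ILCP replicate 3 (0.0671) was left out. Lcp2, which encodes SLP-76, averaged 63.4 ± 14.5 CPM in ILC1/3P, 398 ± 112 in ILCP and 9.84 ± 8.30 in CLP. Its log2 fold change was -2.65 ± 0.60 for ILC1/3P against ILCP (adjusted p = 0.0119), or 0.0916 as the adjusted p without ILC1/3P replicate 2.

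Blnk and Blk, with roles in B cell receptor signalling, were lower in ILC1/3P and in ILCP than in CLP. Blnk, the scaffold of the B cell receptor, had no counts in ILC1/3P and 0.0473 ± 0.0820 CPM in ILCP, against 133 ± 26.9 CPM in CLP (adjusted p = 1.39e-05 and 4.96e-06). It passed the filter through CLP alone, where it is high, so these p-values are no support. Blk, a Src family kinase of B cells, averaged 0.436 ± 0.385 CPM in ILC1/3P, 6.03 ± 1.10 in ILCP and 48.8 ± 2.02 in CLP. The ITAM chains of the B cell receptor, Cd79a and Cd79b, were both lower in ILC1/3P and in ILCP than in CLP. Cd79a averaged 6.40 ± 4.64 CPM in ILC1/3P, 2.36 ± 2.76 in ILCP and 1826 ± 368 in CLP, and Cd79b 140 ± 19.1, 166 ± 18.5 and 714 ± 136 CPM.

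The kinases that bind phosphorylated ITAMs, Zap70 and Syk, were chosen after their values were seen. Zap70 averaged 29.2 ± 7.53 CPM in ILC1/3P, 19.99 ± 6.51 in ILCP and 2.25 ± 1.82 in CLP, higher in ILC1/3P (log2 3.67 ± 0.81, adjusted p = 0.00652) and in ILCP (3.13 ± 0.75, adjusted p = 0.0276) than in CLP. The ILCP call was lost without CLP replicate 1 or 2 or any 1 ILCP library (adjusted p = 0.0516 to 0.0979). Syk averaged 3.76 ± 1.65 CPM in ILC1/3P, 9.44 ± 3.18 in ILCP and 60.8 ± 17.6 in CLP, and was lower in ILC1/3P (-3.99 ± 0.62, adjusted p = 0.00081) and in ILCP (-2.69 ± 0.48, adjusted p = 0.00512). Neither differed past the threshold between ILC1/3P and ILCP (adjusted p = 0.688 for Zap70 and 0.14 for Syk).

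Of 10 genes flanking the 8 loci, 6 were tested, and 0 were called in any comparison by edgeR on the TMM scale (1 was lower in ILC1/3P than in CLP when scaled by library totals alone). At an unadjusted p under 0.05, 1 was higher in ILC1/3P and 1 in ILCP against CLP, and DESeq2 called 1 higher in ILC1/3P against CLP. Ube4a, beside Cd3g, averaged 7.10, 9.90 and 11.7 CPM in ILC1/3P, ILCP and CLP, and Mpzl2, beside Cd3e, had no counts in any library. Nfkbid, beside Hcst, averaged 40.1, 56.3 and 65.1 CPM.

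By the root mean square difference of centred log2 CPM over the 8 libraries, the gene most like Cd3g was Ccl5 (0.910), and those most like Cd3d were Tnfrsf9 (0.433) and Stab2 (0.497). Tyrobp was closest to Rpp21 (0.111) and S100a13 (0.157), Hcst to Nfkbia (0.261) and Cisd3 (0.292), and Fcer1g to Gm15417 (0.274). The genes closest to Ncr1 were AW112010 (1.26) and Klri2 (1.27), and the nearest to Cd247 was Trib2 (0.795). Among the 8 genes themselves, Fcer1g and Hcst were 0.596 apart, and Cd3g and Cd3d 1.52.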

How the data were processed

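Per the labels' protocols, cDNA of lysed sorted cells (SMARTer Ultra Low kit) was PCR-amplified before sequencing on a NovaSeq6000. The deposited table holds whole-number counts per gene and, beside them, the authors' FPKM. Per the submitters' processing notes the genome was mm10. Not given in the sources used here are the aligner, the counter, the annotation and strand use. The authors' FPKM equal counts per fixed gene length and library total, which was checked on 13657 genes. No molecular identifiers are described.

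Sample titles gave the groups and replicate numbers. Counts were tested with edgeR 4.0.16 (R 4.3.3): filterByExpr, TMM scaling, and a robust quasi-likelihood fit to all 8 libraries with 1 mean per group, two-sided, Benjamini-Hochberg adjusted over 13436 genes. Standard errors came from the F statistic. Values are mean ± SD of CPM or FPKM. For a group without counts the bound uses a floor of 3 counts pooled over the group, and with 1 to 3 counts the pooled ratio has its 95% exact interval. The programs were tested on simulated counts. Alternatives were RLE or library-size scaling, no filter, only the 2 groups compared, DESeq2 1.42.0, the replicate number as a block, and leaving out each library. Same-numbered libraries deviated together with correlations of at most 0.0867, so the numbers were not taken as pairs. 0 pairs of libraries were identical.

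The 8 genes and all lists were chosen with earlier results of these data known. The naming rule takes the 8 genes, up to 4 called genes with the smallest p per pathway list and comparison, the 2 most abundant genes of each other-cell list, and the 2 genes most alike in pattern to each of the 8. Not every gene it takes is printed, and gate genes and other cell type markers given beyond it were chosen after their values were seen. Promoter windows are from RefSeq, and exon overlaps and transcript lengths from GENCODE M21. Lists of dendritic, B lineage, erythroid and hepatocyte genes summed to 30.7 to 49.1, 129 to 166, 18.1 to 27.2 and 9.21 to 17.6 CPM in ILC1/3P, to 14.3 to 20.7, 153 to 190, 4.12 to 6.76 and 15.9 to 23.0 CPM in ILCP, and to 173 to 362, 2322 to 3173, 7.35 to 16.4 and 5.55 to 23.0 CPM in CLP.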

Additional observations from a re-analysis of the deposited data

How the results depend on the processing

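The counts of the 8 genes called moved by at most 2 under any alternative and kept their direction: 6 or 7 for ILC1/3P against CLP, 4 to 6 for ILCP against CLP and 3 to 5 for ILC1/3P against ILCP. Of the fold changes of these genes recomputed, 318 kept their side, 2 weakened, 13 became called and 0 reversed. No value was obtained for Cd3e (ILC1/3P against CLP) or Ncr1 (ILCP against CLP) with only the 2 groups compared, which filtered them out, or for Cd3e without ILC1/3P replicate 2, which left no counts in either group. Over all genes, library size as the only scaling gave 946 higher and 2807 lower for ILC1/3P against CLP and 474 and 2141 for ILC1/3P against ILCP. For ILCP against CLP (526 higher and 386 lower), no filter gave 602 lower, and DESeq2 gave 876 higher and 744 lower. With the replicate block, 5 of the 8 genes were called for ILCP against CLP, Ncr1 being added (adjusted p = 0.0360), the log2 fold change of Cd3g for ILC1/3P against CLP was 8.98, and no other call of the 8 genes changed, while the 2 kinases and scaffolds higher in ILC1/3P against ILCP became 0, and the calls of Zap70 (ILCP against CLP, adjusted p = 0.0597) and Lat (ILC1/3P against ILCP, 0.0509) were lost. The block also lost calls of other listed genes, among them Gzmb in ILCP (adjusted p = 0.0627) and Eomes in ILC1/3P (0.0678) against CLP. Same-numbered libraries did not deviate together (largest correlation 0.0867). Leaving out 1 library gave ranges as follows. For ILC1/3P against CLP it gave 1151 to 1639 higher and 1092 to 1584 lower. For ILCP against CLP it gave 347 to 613 higher and 215 to 502 lower, with 215 without CLP replicate 2, 216 without CLP replicate 3, and 347 and 250 without ILCP replicate 3. For ILC1/3P against ILCP it gave 623 to 1066 higher and 689 to 1233 lower, with 623 and 710 without ILC1/3P replicate 2, 692 and 727 without ILCP replicate 1, and 689 lower without ILCP replicate 3. The cause of these shifts was not tested, except that leaving out a library leaves fewer samples. With 2 ILC1/3P libraries, leaving out either leaves a lone sample assumed to vary like the other groups.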
